A study of Homo sapiens with 22 samples.

Results

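The regions described here are the genomic sites at which wild-type estrogen receptor alpha (ESR1) was found on chromatin without added estrogen, in more than a single library, in Ishikawa cells. Peaks of all 20 lists on chromosomes 1 to 22 and X were merged wherever they shared 1 bp or more, which gave 93599 regions. The 896 regions (0.957%) that 2 or more of the 4 wild-type solvent lists had in common were kept as members. The lists that chose the members are the wild-type solvent lists, so their values there are given as a description, and tests were run only on lists that had no part in the choice. Ishikawa is an established line from an endometrioid adenocarcinoma of the uterus. All lines studied were clones of it with a FLAG tag on ESR1, so binding was read with an anti-FLAG antibody by chromatin immunoprecipitation sequencing (ChIP-seq).

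The clones carried either WT ESR1 (2 clones) or D538G, a substitution in its ligand-binding domain (3 clones). Every line was kept for at least 5 days in medium free of phenol red with stripped serum and then received 10 nM estradiol (E2) or 0.1% DMSO, the solvent, for 1 h. Each clone gave 2 replicates per treatment, which makes 4 libraries of WT with DMSO, 4 of WT with E2, 6 of D538G with DMSO and 6 of D538G with E2. Each genotype is represented by clones, and libraries of 1 clone are not fully independent, so p-values measure the spread between libraries and may be too small as a statement on genotype. One more input library per genotype was not analysed here.

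ESR1 is a nuclear receptor that binds estrogen response elements in DNA, and estradiol stabilises the form of its ligand-binding domain that recruits coactivators. Without ligand much of the receptor is held by chaperones or binds chromatin weakly, although some binding at open chromatin is known. D538G lies in the last helix of the ligand-binding domain and holds it in an active form without hormone. It occurs in hormone-resistant breast cancer and in endometrial cancer.

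Some libraries stood apart, and this bears on what a member is. The 4 WT DMSO lists held 50 (clone 1 replicate 1), 29117 (clone 1 replicate 2), 44 (clone 2 replicate 1) and 1080 (clone 2 replicate 2) peaks. In each clone the replicate 2 list was the longer. The other 16 lists held 1619 to 54895 peaks, and the read depth behind each list is not known. The peak names in the D538G clone 2 replicate 1 E2 list hold the letters Ctl, which otherwise occur only in DMSO lists, and its DMSO partner was therefore set aside with it in an added alternative. The labels were followed here. The word Input stands in the peak names of the replicate 1 lists of D538G clones 1 and 2 and not in those of other lists, and whether this moved their values was not tested.

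Because 2 of the WT DMSO lists were very short, 883 of the 896 members (98.5%) had a peak in both replicate 2 lists, and 846 had a peak in those and in neither replicate 1 list. Members made up 893 (3.66%) of the regions of the long clone 1 replicate 2 list and 884 (89.9%) of the regions of the clone 2 replicate 2 list. The short lists were almost wholly members as well, with 39 (92.9%) of the regions in clone 1 replicate 1 and 37 (94.9%) of those in clone 2 replicate 1. Peaks in 3 of the 4 lists were found at 29 regions and in all 4 at 16. Membership therefore rests on both replicate 2 libraries. Without that of clone 1, 48 regions would have a peak in 2 of the other 3 lists, and without that of clone 2, 49 would. Just outside the rule stood 23625 regions with a peak in 1 of the 4 lists, of which 23521 (99.6%) were found in clone 1 replicate 2 alone.

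The regions just inside and just outside the rule differed in size and in how often they were bound with E2. The 851 members with exactly 2 lists had a median width of 1799 bp and 99.1% of them had a peak in at least 2 WT E2 lists. The regions with 1 list had a median width of 788 bp and 69.7% of them had a peak in at least 2 WT E2 lists. The 99 regions found in clone 2 replicate 2 alone had a median width of 865 bp, and 94.9% of them were found in at least 2 WT E2 lists.

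With E2, wild-type receptor was found at nearly all members. In WT E2 libraries 91.5% (clone 1 replicate 1), 99.2% (clone 1 replicate 2), 85.7% (clone 2 replicate 1) and 98.9% (clone 2 replicate 2) of members had a peak. At least 2 of the 4 WT E2 lists held 888 members (99.1%), where 28.4% of all regions passed the same mark. All 4 held 764 members (85.3%), against 4.97% of all regions, and 5 members had no peak in any WT E2 list. Apart from these 5, each site bound without hormone was also seen in at least 1 list with hormone. This contrast involves the lists that chose the members and was not tested.

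To set the members against the rest of wild-type binding with E2, 25709 comparison regions were taken that had a peak in at least 2 WT E2 lists and in fewer than 2 WT DMSO lists. In the shorter WT E2 lists the contrast was wide, with peaks at 25.2% (clone 1 replicate 1) and 17.8% (clone 2 replicate 1) of comparison regions. In the longer lists, of replicate 2, 97.9% of comparison regions had a peak in each clone, close to the share of members. The comparison regions were defined on these lists, and 76.4% of them had a peak in exactly 2, so their shares in WT E2 libraries are largely set by that definition. The plot of shares by library shows both sets side by side.

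**Figure D1:**
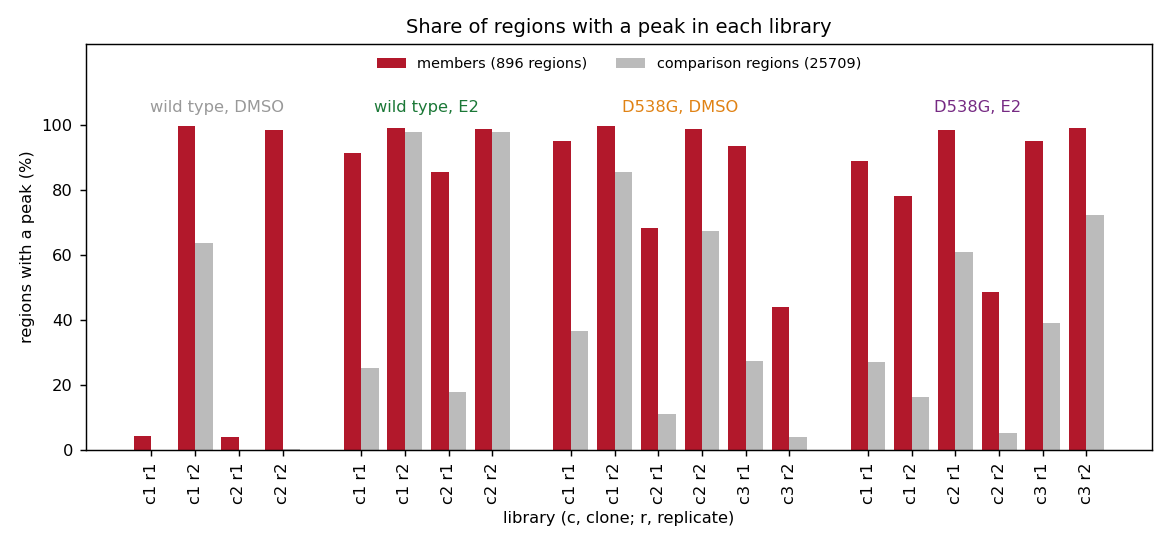
Share of the 896 members (red) and the 25709 comparison regions (grey) with a peak, in percent, for each of the 20 libraries. The member bar is the higher of the pair in the 12 D538G libraries, where it runs from 43.9% to 99.9%; the WT lists were used to define the members, the comparison regions or both.

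In D538G clones the members were bound with and without E2. With DMSO the share of members with a peak was 43.9% at lowest, 94.4% at the median and 99.9% at highest over 6 libraries. With E2 it was 48.8%, 92.0% and 99.2% in the same order. All 896 members had a peak in at least 1 D538G DMSO list, as had 78.8% of all regions. At least 2 of these lists held 890 members, a mark that 28.4% of all regions passed. The 6 D538G DMSO lists together shared 378 members (42.2%), against 0.928% of all regions. At least 2 D538G E2 lists held 883 members (98.5%; 25.8% of all regions), and all 6 held 427 (47.7%; 1.33% of all regions).

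The length of a list moved with the share of members it held. Lists of more than 21000 peaks other than the WT DMSO lists held at least 98.7% of members in each case. The shortest D538G lists, clone 3 replicate 2 with DMSO (1619 peaks) and clone 2 replicate 2 with E2 (1976 peaks), held 43.9% and 48.8%. Fewer reads, weaker enrichment and fewer bound sites cannot be told apart from a peak list. Within a library both sets are read from the same list, so members were set against comparison regions library by library.

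Within every D538G library, members had a peak more often than comparison regions, and their peaks ranked higher and were wider. The D538G libraries chose neither set, but the definitions bear on the outcome. The short clone 2 replicate 2 WT DMSO list held 884 members, while 76.4% of comparison regions had a peak in exactly 2 WT E2 lists. The tests below therefore cannot tell a trait of binding without hormone from one of strong sites. The difference in the share with a peak was 46.3 ± 16.5 percentage points (SD, n = 12 libraries), positive in 12 of 12 (exact two-sided sign-flip permutation test, p = 0.000488, the smallest this test can give; adjusted p = 0.00114 over the 7 single-value tests by the Benjamini-Hochberg method). Peaks were also ranked within each list by the authors' signal value, as a percentile in which 100 marks the strongest peak. Ranks from lists of different lengths describe each list and do not measure a change between them. The median percentile of members exceeded that of comparison regions by 26.7 ± 9.38 points (SD, n = 12), again in 12 of 12 (exact permutation p = 0.000488, adjusted p = 0.00114). The median width of the strongest peak in a member exceeded that in a comparison region by 316 ± 182 bp (SD, n = 12), in 12 of 12 (exact permutation p = 0.000488, adjusted p = 0.00114). With each of the 3 clones as 1 unit the differences are the same and the exact permutation p is 0.25, the smallest that 3 units allow. Without the WT E2 list of clone 1 replicate 2 the differences fell to 32.1 percentage points, 13.4 percentile points and 282 bp. Without that of clone 2 replicate 2 they fell to 32.1, 13.6 and 285 bp.

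**Figure D2:**
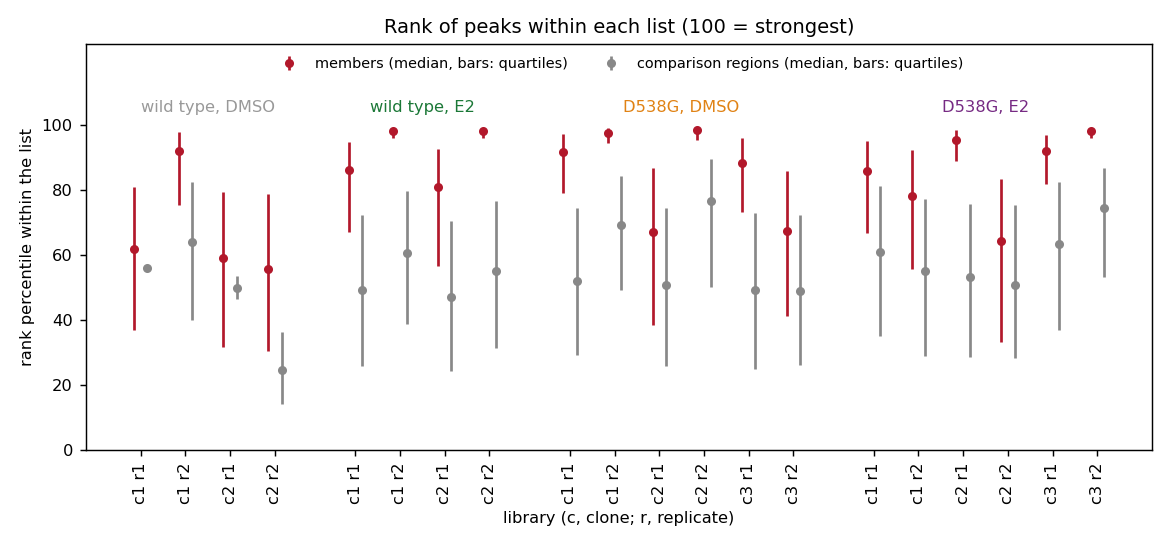
Rank percentile within each list (100 is the strongest peak by signal value) of members (red) and comparison regions (grey), as the median with the lower and upper quartile, for each library. In the 12 D538G libraries the member median lies above the comparison median each time, and in the WT DMSO replicate 1 lists the comparison set holds too few peaks to read.

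The rank of members in single libraries shows how far they sat at the head of each list. In WT E2 libraries their median percentile was 86.2 (clone 1 replicate 1), 98.3 (clone 1 replicate 2), 80.8 (clone 2 replicate 1) and 98.2 (clone 2 replicate 2), while that of comparison regions was 49.2, 60.7, 47.2 and 55.1. In D538G libraries with DMSO the member medians ran from 67.2 to 98.5 (median 90.1), and with E2 from 64.4 to 98.1 (median 88.9). Their spread was narrow in the long lists and wide in the short ones. In the WT DMSO lists themselves, used by the rule, members had a median percentile of 92.2 in clone 1 replicate 2 and 55.8 in clone 2 replicate 2.

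Members were concentrated among the strongest sites of each list. Of the 500 highest-ranked regions, members were 48.6% (clone 1 replicate 1), 76.4% (clone 1 replicate 2), 45.2% (clone 2 replicate 1) and 83% (clone 2 replicate 2) in WT E2 lists. In D538G lists they were 28% to 63.2% with DMSO and 31% to 58.6% with E2. The groups overlap, although both of the highest values belong to wild type with E2. Further down each list the share fell steeply.

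**Figure D3:**
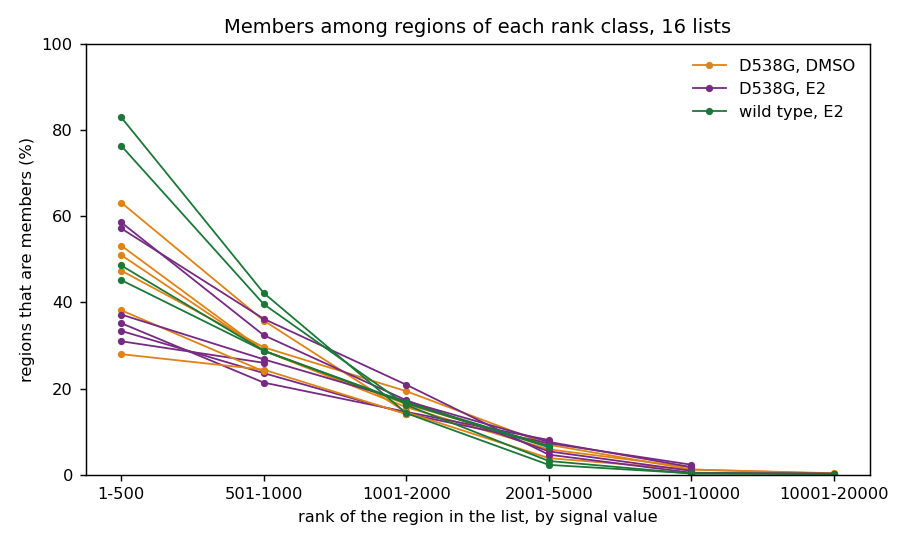
Percent of regions that are members, by the rank class of the region in its list, for the 16 lists that did not choose the members (each line is a list, coloured by group; classes that a list does not fill are left out). Every line is highest in the first class, from 28% to 83%.

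The members' share in D538G and WT was compared under E2. The rule used no E2 list, but it did use the same 2 WT clones and mainly their replicate 2 libraries, so the choice of members may favour the WT arm and these tests are not independent of it. The share of members with a peak was 84.8 ± 19.3% (SD, n = 6) in D538G and 93.8 ± 6.48% (SD, n = 4) in WT, a difference of −9.01 points that the exact two-tailed permutation test over libraries did not tell from their spread (p = 0.471, adjusted p = 0.636). Among replicate 1 libraries alone the difference was 5.62 points and among replicate 2 libraries −23.6 points (exact permutation p = 0.3 and 0.4, where the smallest possible is 0.1). To hold list length fixed, the 1000 strongest peaks of each list were taken and the share lying in members was counted. In WT E2 lists it was 40%, 58%, 38.3% and 63.3% in clone 1 replicates 1 and 2 and clone 2 replicates 1 and 2. In D538G E2 lists it ran from 29% to 48% (median 31.3%), which overlaps the WT values. The means were 36.0 ± 9.02% (SD, n = 6) and 49.9 ± 12.6% (SD, n = 4), and the difference of −13.9 points did not pass the threshold (exact permutation p = 0.0810, adjusted p = 0.142). It was −2.82 points among replicate 1 libraries and −25.0 among replicate 2 libraries, and without the D538G clone 2 replicate 1 pair it was −16.1 points (exact permutation p = 0.0476, adjusted p = 0.0833). The sign turned, to 0.225 points, when members were chosen without either the clone 1 or the clone 2 replicate 2 list of WT DMSO, or from 3 of 4 lists.

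E2 did not move the members' share in D538G clones beyond the spread between libraries. The share with a peak was 84.8 ± 19.3% with E2 and 83.3 ± 22.6% with DMSO (SD, n = 6 each), a difference of 1.53 points (exact permutation, two-sided p = 0.883, adjusted p = 0.883). Without the clone 2 replicate 1 pair it was −4.24 points, and with single libraries left out it ran from −6.36 to 8.74 points. Among the 1000 strongest peaks, members took 36.0 ± 9.02% with E2 and 39.0 ± 8.47% with DMSO, a difference of −3.03 points (exact permutation p = 0.545, adjusted p = 0.636). These libraries cannot show that the shares are alike, since the members' share ran from 43.9% to 99.9% over single lists.

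Single members were then compared by the number of libraries with a peak (Fisher's exact test, two-sided, adjusted over all regions tested by the Benjamini-Hochberg method). Between D538G and WT under E2, 35726 regions could be tested and none passed the adjusted threshold of 0.05, while 434 (1.21%) passed an unadjusted p of 0.05. Of the 891 members tested, 0 passed even the unadjusted mark by this exact test, the smallest p being 0.0762 (adjusted p = 1). D538G had the lower share of libraries at 406 members (45.6%), the higher at 46 (5.16%) and an equal share at 439. Over all regions tested a lower share in D538G was more frequent, at 68.9%, and so was a higher share, at 21.7%. Between E2 and DMSO in D538G, 9 of 44916 regions (0.02%) passed unadjusted and none adjusted, and of 893 members tested 0 passed unadjusted. The few libraries limit the adjusted count by treatment in the same way. The unadjusted counts over all regions depended on single libraries. By genotype the count was 330 to 950, being highest without D538G E2 clone 3 replicate 1 and also above 1.5 times its value without E2 clone 1 replicate 1 (790), clone 2 replicate 2 (852) or clone 3 replicate 2 (674). By treatment it was 9 to 481, reaching 481 without E2 clone 3 replicate 2 and 426 without E2 clone 2 replicate 2. It was 14 to 73 without E2 clone 2 replicate 1 or without any D538G DMSO list other than clone 2 replicate 2. At most 1 member passed in any of these.

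When only the 1000 strongest peaks of each E2 list were counted as bound, members passed unadjusted at a share near that of all regions. None passed after adjustment. Of 2155 regions tested, 156 (7.24%) passed an unadjusted p of 0.05, and of 720 members tested, 67 (9.31%) did. A smaller share of D538G than of WT libraries held 51 of these 67 members and a larger share held 16. Over all regions, members included, 71 (3.29%) had the smaller and 85 (3.94%) the larger share in D538G. Members were thus 51 of the 71 regions with the smaller share and 16 of the 85 with the larger. The rule used DMSO lists of the same WT clones, which may favour the WT arm, so the direction of this split is not independent of the choice. The smallest adjusted p was 0.257 by Fisher's exact test. Among the strongest peaks of all 10 E2 lists were 86 members, where 92 of all regions tested were. Another 9 members were among those of all 4 WT lists and of no D538G list, while 4 showed the reverse. Over all regions tested the balance ran the other way, with 15 and 25.

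One of these 9, chr9:97400769-97402320, lies at the start of FBP1, which encodes a gluconeogenic enzyme, by general knowledge of GRCh37. In WT E2 lists it ranked 120 and 25 in clone 1 and 396 and 10 in clone 2 (replicates 1 and 2). In 5 of 6 D538G E2 lists it had a peak, ranked 1549 at best and 10614 at worst. This site was chosen after its values were seen. Its adjusted Fisher p was 0.257.

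Members with the most different counts of libraries, chosen by a rule, illustrate the range. At chr10:135000364-135001360, inside KNDC1, a gene of a brain-expressed guanine exchange factor, all 4 WT E2 lists but 2 of 6 D538G E2 lists had a peak (exact Fisher p = 0.0762, adjusted p = 1). Its ranks in WT E2 lists were 1152 and 124 in clone 1 and 3961 and 606 in clone 2. In the opposite direction, chr20:61203614-61204652 had a peak in 6 of 6 D538G E2 lists and in the 2 replicate 2 lists of WT with E2 (exact Fisher p = 0.133, adjusted p = 1). Its best rank among D538G E2 lists was 136, in the clone 2 replicate 1 list with the Ctl peak names, and 463 without that list. Among WT E2 lists it was 1658.

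The place of the peak within a member was shared between libraries. Over the 16 lists that did not choose the members, the median distance from a peak's summit to the summit in the WT DMSO list in which the site ranked highest was 30 to 47 bp. The share of summits within 100 bp of it was 70.7% to 81.2%.

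Members were wide and lay near other binding. Their merged width had a median of 1808.5 bp and ran from 384 to 13057 bp, and 41.6% reached at least 2000 bp, against a median of 812 bp and 3.81% for comparison regions. Merging over 20 lists widens a region that is bound in many of them, and 568 members held more than 1 peak in some list. Single peaks were wide as well, with a median member width in WT E2 lists of 625.5, 1605, 513 and 1281.5 bp against 346, 563, 332 and 474 bp for comparison regions, in the order of clones and replicates used above. Another member lay within 100 kb of 442 members (49.3%), with at most 9 such neighbours. Members had a median of 11 neighbours within 100 kb among regions found in at least 2 WT E2 lists, and comparison regions had 4.

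**Figure D4:**
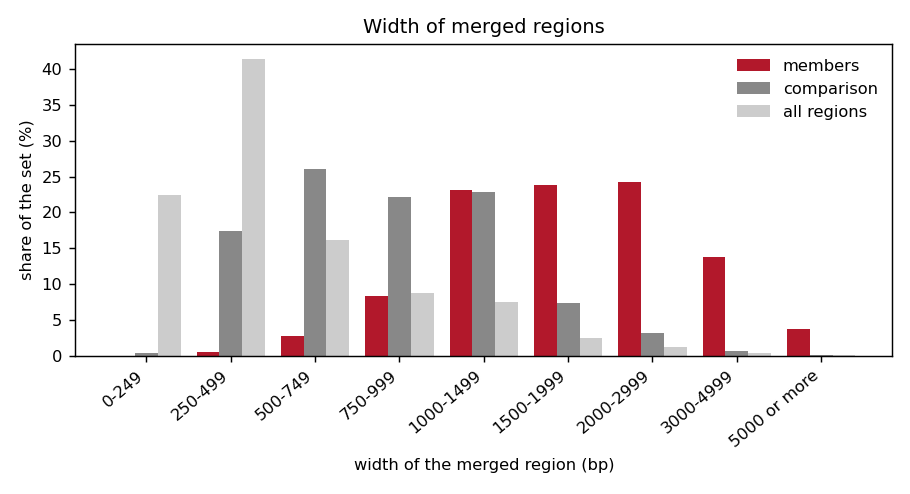
Width of the merged regions in bp, as the percent of members (red), comparison regions (dark grey) and all regions (light grey) in each width class. The members peak from 1000 to below 3000 bp, and all regions peak below 500 bp.

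Their spread over the chromosomes differed somewhat from that of the comparison regions. Chromosome 1 held 104 members (11.6%, against 8.89% of comparison regions), chromosome 19 held 72 (8.04% against 6.64%) and chromosome 17 held 70 (7.81% against 5.99%). The X chromosome held 4 members (0.446% against 1.59%).

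Of the members, 330 (36.8%) had a peak in all 16 lists that did not choose them, and they made up 50.1% of the 659 regions with that property. Members were 43.5% of the 869 regions found in all D538G DMSO lists, 34.3% of the 1244 found in all D538G E2 lists and 16.4% of the 4653 found in all WT E2 lists. At the other end, 13 members were found in 5 or fewer of the 16 lists. The order of the members was also partly shared. Over 883 members found in both, ranks in the WT DMSO replicate 2 lists of clones 1 and 2 had a Spearman rho of 0.396. Ranks in the clone 2 replicate 2 DMSO list went with those in WT E2 lists at a rho of 0.468 to 0.709 and with those in D538G lists at 0.210 to 0.526. For the clone 1 replicate 2 DMSO list the values were lower, 0.175 to 0.261 and 0.0219 to 0.275. These points share the sites and the width of peaks, and the values are descriptions.

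The members nearest to known estrogen-regulated genes were read from a list of 30 genes. A member counted to a gene when it lay in a window around it, set in GRCh37 from general knowledge, and no distances are given. Windows of 10 genes held 17 members, 17 other windows held comparison regions but no member, and 3 held neither. No member lay in the windows of PGR, the progesterone receptor gene, TFF1, a secreted trefoil peptide gene, NRIP1, a receptor corepressor gene, XBP1, the gene of an unfolded-protein-response factor, or ESR1 itself. These windows held 6, 24, 7, 6 and 19 regions of any kind. Members are 0.957% of all regions, so few or none would be met there at that share. Windows with members held 11 (CISH) to 79 (DIP2C) regions, and no count was tested against the share. TGFA, DIP2C and NFIC were on the list because strong binding there in all libraries was already known, so their count supports nothing.

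**Figure D5:**
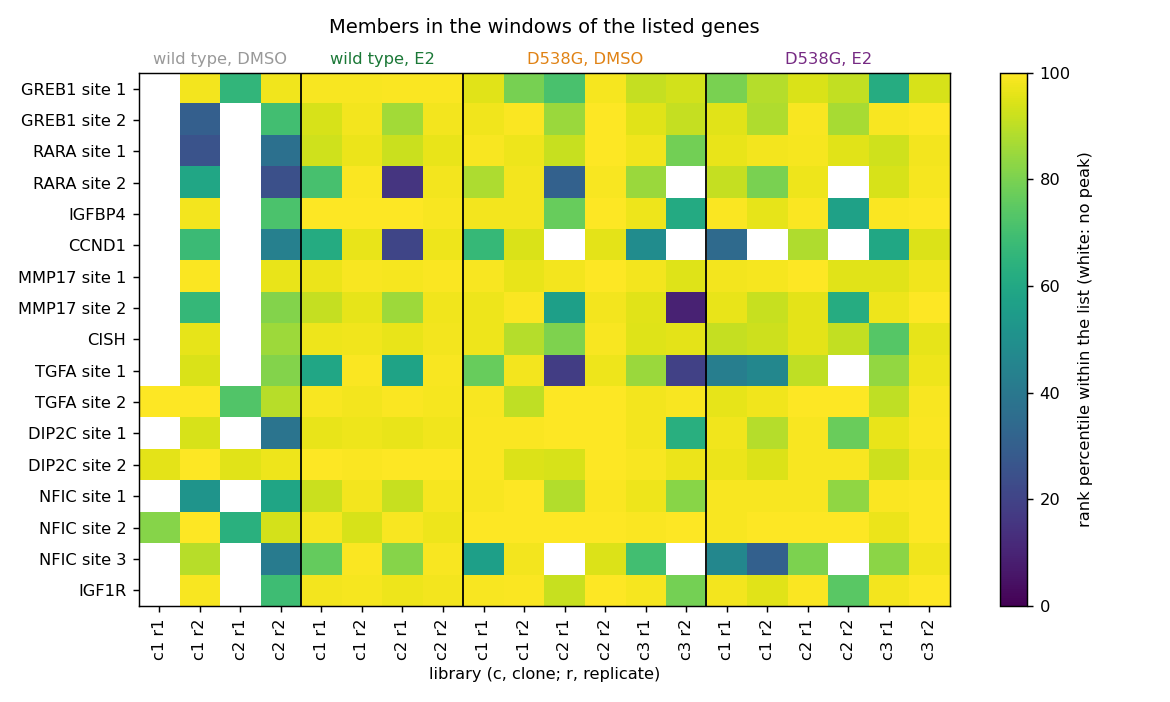
Rank percentile within the list (100 is the strongest peak, white means no peak) of the 17 members in the windows of the listed genes, for each of the 20 libraries, with groups divided by lines. Sites at DIP2C (site 2), TGFA (site 2) and NFIC (site 2) have a peak in all 20 libraries, and most others lack one in the WT DMSO replicate 1 lists.

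GREB1, an estrogen-induced coactivator of the receptor, had 2 members. The first, chr2:11638027-11639709 upstream of the gene, was in 3 of 4 WT DMSO lists, at rank 568 of clone 1 replicate 2, rank 16 of clone 2 replicate 1 and rank 23 of clone 2 replicate 2. With E2 in WT it ranked 79 and 282 in clone 1 and 37 and 166 in clone 2, a percentile of at least 99.0 in each list. In D538G it was present in all 12 lists, at a percentile of 71.5 to 98.6 (median 92.2) with DMSO and 62.1 to 94.5 (median 89.7) with E2. All of its percentiles in WT E2 lists were thus above all of those in D538G lists. They come from lists of different lengths and do not measure a change between genotypes, and this difference in rank was not tested. The second, chr2:11679138-11682025, ranked 20290 in clone 1 replicate 2 and 328 in clone 2 replicate 2 of WT DMSO, and its percentiles in D538G, 85.1 to 99.8 with DMSO and 86.8 to 99.8 with E2, overlapped those in WT E2, 86.2 to 98.2.

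Receptor and growth factor signalling genes came next. RARA, the retinoic acid receptor alpha gene and a known ESR1 target, had 2 members. At chr17:38477094-38479542 a peak was present in all 16 other lists, with a median percentile of 94.8 in WT E2, 97.6 in D538G DMSO and 97.6 in D538G E2. At chr17:38486436-38489167 the percentiles in WT E2 ran from 15.3 to 99.6, and 5 of 6 lists had a peak in each D538G group. IGF1R, the receptor of insulin-like growth factor 1, had a member at chr15:99319549-99321087. It was found in all 16 other lists, at percentiles of 97.4 to 98.6 in WT E2, 79.2 to 99.7 in D538G DMSO and 74.3 to 99.7 in D538G E2. The member in the window of IGFBP4, a secreted inhibitor of insulin-like growth factors, was chr17:38645641-38647320, which lies beyond that gene. Whether this site acts on IGFBP4 was not tested. In WT E2 lists it ranked 23 and 137 in clone 1, and 2 and 347 in clone 2, so that it was the second strongest peak of the clone 2 replicate 1 list.

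CCND1, which encodes cyclin D1, a driver of the G1 phase of the cell cycle, had the least widely shared member among these genes. At chr11:69451078-69454410 all 4 WT E2 lists had a peak, ranked 3152 and 1109 in clone 1 and 4548 and 803 in clone 2. In D538G, 4 of 6 lists had one in each treatment, with median percentiles of 80.7 with DMSO and 73.8 with E2. For D538G against WT under E2 the exact Fisher p was 0.467 (adjusted p = 1). CISH, a feedback inhibitor of cytokine signalling, had a member at chr3:50641354-50643871, at percentiles of 96.5 to 98.3 in WT E2 and 73.6 to 99 over the D538G lists.

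MMP17, a membrane-type matrix metalloproteinase gene, had 2 members, 1 on either side. The site chr12:132283388-132286997 was strong in every list that held it, with ranks of 117 and 38 in the replicate 2 WT DMSO lists of clones 1 and 2, and percentiles of 97.2 to 99.6 in WT E2 and of at least 95.3 in the D538G lists. The site chr12:132344769-132346077 varied more in D538G DMSO, from 9.51 to 99.6.

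Each of the remaining genes held 1 site found in all 20 libraries, described here. DIP2C and TGFA had 2 members each and NFIC had 3, of which 2, 1 and 2 were present in all 16 lists that did not choose the members. DIP2C, a gene of the disco-interacting protein family, had a member at chr10:549538-554528 that ranked 3 and 1 in clone 1 and 3 and 29 in clone 2 of WT DMSO. It ranked 24 and 205 in clone 1 and 10 and 121 in clone 2 of WT E2, and its percentiles were at least 92.6 in all D538G lists. TGFA, which encodes an epidermal growth factor receptor ligand, had chr2:70842805-70845341, ranked 1 and 29 in clone 1 and 13 and 117 in clone 2 of WT DMSO. Its percentiles were at least 98.2 in WT E2 and at least 90.3 in D538G lists. NFIC, a nuclear factor I transcription factor gene, had chr19:3386524-3390835, ranked 10 and 13 in clone 1 and 17 and 69 in clone 2 of WT DMSO. In D538G DMSO lists this site was among the strongest of all, ranked 1 in clone 2 replicate 1, 3 in clone 3 replicate 2 and 6 in clone 1 replicate 2. In WT E2 it ranked 108 and 2140 in clone 1 and 57 and 784 in clone 2.

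The 10 highest-ranked members among the 16 found in all 4 WT DMSO lists were also present in all 16 other lists. Apart from the sites at DIP2C, TGFA and NFIC just given, they include chr2:100252071-100254340 inside AFF3, a nuclear protein gene of the AFF family, and chr1:15302098-15305363 inside KAZN, the gene of the desmosome-linked protein kazrin, both placed by general knowledge of GRCh37. In WT DMSO the AFF3 site ranked 11 and 10 in clone 1 and 11 and 6 in clone 2. Its percentiles were 98.2 to 99.1 in WT E2, 78.6 to 98.8 in D538G DMSO and 69.5 to 95.9 in D538G E2. The KAZN site ranked 6 and 15 in clone 1 and 6 and 69 in clone 2, with percentiles of 90.2 to 98.2 in WT E2 and 82.6 to 99.7 over the D538G lists.

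Among members missing from at least 1 WT DMSO list, the highest-ranked 10 were found in both replicate 2 lists. The first of them, chr18:77438429-77440462, ranked 79 in clone 1 and 1 in clone 2. A further one, chr1:1006878-1010970, ranked 170 and 14 there. With E2 in WT it ranked 2 and 1 in clone 1 and 13 and 1 in clone 2, at the head of the list in both replicate 2 libraries. In the 6 D538G E2 lists its rank ran from 203 to 1244.

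The members found least often elsewhere had 1 other list each. They are chr12:56211277-56212046, chr2:202096870-202097253 and chr12:120728999-120729495, all found in both replicate 2 WT DMSO lists, in D538G clone 1 DMSO replicate 2 and in none of the 10 E2 lists. Their ranks in the clone 1 replicate 2 DMSO list of WT were 4151, 9276 and 24842, and in clone 2 replicate 2 they were 1038, 930 and 487. They were narrow, with widths of 770, 384 and 497 bp.

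A group of 10 members did not look like the rest. These were found in both replicate 1 WT DMSO lists and not in the clone 2 replicate 2 list, and were chosen after their values were seen. Their median width was 611 bp. Over the 113 peaks they had in the 16 lists that did not choose the members, their median percentile by signal value was 4.02, against 93.9 for the members found in both replicate 2 lists. By −log10 p the medians were 71.8 and 94.4. They lay low in signal but not in −log10 p. Examples are chr16:33962972-33963582 and chr16:33963696-33964348, which neighbour each other, chr21:9825332-9827678 and chr20:26189789-26190450. At chr1:91852675-91853236 the peak ranked 22 of 50 in WT clone 1 replicate 1 DMSO and last in 3 D538G lists, among them clone 1 replicate 1 with DMSO (rank 12961 of 12961). No track of repeats or of regions prone to artefacts was used, and whether such sequence plays a part was not tested.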

How the data were processed

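FLAG ChIP-seq peak lists of 20 libraries were analysed. Groups came from the labels, and the 2 inputs were not analysed here. Each list was called per library, and the submitters' processing notes name Bowtie, MACS2 and build hg19 (GRCh37) without versions. The deposited lists give a signal value and a −log10 p per peak, as the authors' own values, the lowest −log10 p being 10.0. What the signal is relative to and the read depth are not given in the sources used here, so signal served only to rank peaks within a list. Of 356472 peaks, 30 on chromosome Y and 5 on the mitochondrial sequence were left out.

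Peaks overlapping by at least 1 bp were merged with Python 3.11.15 and checked against bedtools 2.31.1, and a region was bound in a library with any peak in it. Permutation tests compared absolute differences of means. D538G E2 and DMSO libraries share a clone and number in the labels; partners lay on the same side of their group means in 2 of 6 pairs for the share with a peak and 1 of 6 for the share of strongest peaks. Alternatives were other thresholds, overlaps, ranks, list lengths and left-out libraries.

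Members, gene list and tests were chosen with earlier results of these data known. Named regions were the 10 highest-ranked members in 4 and in 3 or fewer WT DMSO lists, the 5 in fewest other lists, the 5 with the smallest Fisher p in each direction and all in the windows of the listed genes; others are said to be chosen later. No sequence is shown because no genome of the build of the lists was used here.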

Additional observations from a re-analysis of the deposited data

Results flagged for a closer look

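In 20 combinations of measure and group, 2 held a library set apart from the rest of its group by Dixon's criterion, which chance meets in about 1 of 20 groups. Both belong to the WT clone 1 DMSO replicate 2 library. This library took part in choosing the members, so that chance rate does not hold for it. Both values are descriptions and not tests. Its members had a median rank percentile of 92.2, where the gap to the nearest of the other 3 WT DMSO lists was 0.830 of the whole range. Of its 1000 strongest peaks 30.4% lay in members, with a gap of 0.939 of the range. That list held 29117 peaks, and the other 3 held 44 to 1080, so its strongest peaks were drawn from a far longer list. In the replicate 1 lists, of 50 and 44 peaks, every peak was counted among the strongest. Whether list length sets these values was not tested.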

How the results depend on the processing

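Of 269 alternatives to 9 results, 245 left direction and side of the threshold as reported, 9 took an adjusted p past 0.05 and 15 turned a direction. The 245 include 26 alternatives for each of the Fisher results, where an adjusted pass was nearly out of reach in most settings. The sign of the members' share in D538G with E2 against DMSO turned to −4.24 points without the clone 2 pair of number 1, to −3.70 with members from 3 of 4 lists, to −5.47 in replicate 2 libraries alone and to −2.94 with lists held to 1000 peaks. The share among the strongest peaks in D538G against WT turned to 0.225 points with members from 3 of 4 lists, and the share with a peak to 5.62 points in replicate 1 libraries alone. Members exceeded comparison regions by 56.3 points, 31.8 percentile points and 303 bp in replicate 1 libraries alone and by 36.3, 21.5 and 329 bp in replicate 2 libraries alone (exact permutation p = 0.0312, the smallest 6 libraries allow; adjusted p = 0.0729). With clones as units they did so by 46.3, 26.7 and 316 bp (exact permutation p = 0.25, adjusted p = 0.438). There the number of units sets the smallest p.

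Leaving out each library in turn gave −11.9 to −1.80 points for the share with a peak in D538G against WT under E2, −6.36 to 8.74 for E2 against DMSO in D538G, −17.8 to 0.225 for the strongest peaks by genotype and −5.52 to −0.200 by treatment. Members minus comparison regions ranged from 32.1 to 53.7 points, 13.4 to 34.8 percentile points and 282 to 583 bp, with an adjusted p of at most 0.00228 by the exact permutation test. The value of 0.225 arose without either WT DMSO replicate 2 list, which leaves few members. For treatment, the sign turned without either of those lists, D538G clone 2 replicate 1 of either treatment, clone 3 replicate 1 E2, clone 3 replicate 2 E2 (−1.35 points) or clone 3 replicate 2 DMSO (−6.36 points). Regions called by Fisher's exact test stayed at 0 to 0 after adjustment, a count that the smallest possible p nearly fixed.

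With a replicate block (genotype permuted within replicate number, treatment paired by clone and number), the differences were −9.01 and −13.9 points by genotype (exact permutation p = 0.53 and 0.09) and 1.53 and −3.03 points by treatment (p = 0.875 and 0.688, exact), and 0 regions passed adjustment in either. No call changed. Unknown depth and short WT DMSO lists limit all shares: a missing peak does not show a missing site.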
